A study of Mus musculus with 12 samples.

Results

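A set of 8 genes was followed across 12 mouse liver RNA-sequencing libraries: Hist1h2al, Rps3a3, Asic5, Clec2h, Plekhg6, Klhdc7a, Iffo2 and Fam213b. They are 8 of the 53796 genes of the deposited table and of the 11728 that were tested, and they had been picked by symbol for a difference between the 2 mutant groups. Each of 4 groups held 3 libraries: Sham (genotype WT, named as sham), WT (genotype WT), RIPK1 D138N (a mutation of the kinase RIPK1 known to remove its kinase activity) and TNFR1/2 KO (labelled as lacking both TNF receptors). The study compared liver with and without ischemia, a loss of blood supply. The last 3 groups carry no treatment label and were read as the ischemia arm from the series title. Strain, age, sex, the design of the mutant alleles and any pooling of animals are not given in the sources used here. With no sham libraries of either mutant, a difference between genotypes before ischemia and a difference in the response to it cannot be told apart.

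TNF binds TNFR1 (gene Tnfrsf1a) and TNFR2 (Tnfrsf1b) on the cell surface, and TNFR1 passes the signal on through RIPK1 to inflammation or cell death. The 8 genes belong to no common pathway. A targeted allele is inherited together with the DNA around it, so a list of genes that mark a mutant line can be set against their distance from the targeted loci. Asic5 encodes an ion channel of the acid-sensing family that responds to bile acids, and Fam213b a thioredoxin-like enzyme of prostaglandin F synthesis. Clec2h encodes a C-type lectin-like protein of a family that includes ligands of natural killer cell receptors, and Plekhg6 a protein with a pleckstrin homology domain. Iffo2 is an intermediate filament family gene and Klhdc7a encodes a kelch-repeat protein. Hist1h2al carries the name of a histone H2A gene, and Rps3a3 that of a protein of the small ribosomal subunit. Both are annotated in GENCODE M21 as processed pseudogenes, copies made from a spliced RNA.

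Transcripts of the targeted receptors were still listed in the libraries labelled knockout, where Tnfrsf1a stood at 15.3, 21.9 and 18.4 FPKM and Tnfrsf1b at 7.22, 3.96 and 9.31 FPKM (fragments relative to transcript length and library depth). FPKM for a whole gene does not tell a partly deleted transcript from an intact one. The 6 hepatocyte markers were abundant in every group, with a sum of 33200 to 37100 FPKM in Sham, 5780 to 8490 in WT, 14300 to 19700 in RIPK1 D138N and 14800 to 17700 in TNFR1/2 KO, although Serpina1e was listed at 0 in all 3 TNFR1/2 KO libraries. Serpina1e held 7790 to 10700 FPKM in Sham, 1430 to 2070 in WT and 148 to 4220 in RIPK1 D138N. A listed 0 can be a failed estimate or an absent transcript, and which applies was not tested. RIPK1 D138N replicates 2 and 3 stood apart in holding Xist, the RNA of the inactive X chromosome, at 20.1 and 23.4 FPKM against at most 0.0824 in any other library. The number of genes at 1 FPKM or more was 10653 or fewer in each library.

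Near-identical relatives exist for 2 of the 8 genes, and part of their sequence is therefore shown first. Among all GENCODE M21 transcripts, Hist1h2al and Rps3a3 each had 6 relatives with at least 95% identity over at least 90% of their length, and the other 6 genes had none. The 339 bases of Hist1h2al differ from the histone gene Hist2h2aa1 at 2 positions, C120T and T216G, counted from 1 at the 5′ end of Hist1h2al with its base first. Both lie in the stretch below, in capitals (Hist1h2al bases 113 to 222).
Hist1h2al: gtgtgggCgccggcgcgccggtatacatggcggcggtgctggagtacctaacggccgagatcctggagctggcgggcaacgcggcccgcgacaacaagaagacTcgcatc
Hist2h2aa1: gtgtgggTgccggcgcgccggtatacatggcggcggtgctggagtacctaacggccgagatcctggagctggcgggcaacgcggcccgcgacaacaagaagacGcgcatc
The 795 bases of Rps3a3 differ from Rps3a1, the protein-coding gene, at 9 positions. C216T and C260T are in capitals in the next stretch (Rps3a3 bases 193 to 282).
Rps3a3: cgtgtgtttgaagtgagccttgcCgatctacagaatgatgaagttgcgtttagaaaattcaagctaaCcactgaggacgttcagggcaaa
Rps3a1: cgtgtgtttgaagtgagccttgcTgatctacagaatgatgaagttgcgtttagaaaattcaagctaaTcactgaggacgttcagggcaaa
The longest run without a difference is 123 bases in the first pair and 215 bases in the second. A fragment that falls inside such a run matches both genes equally.

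In all 3 TNFR1/2 KO libraries, 6 of the 8 genes were higher than in any of the other 9. Of all genes tested, 167 (1.42%) had that order. Without RIPK1 D138N replicates 2 and 3 the count was also 6. That outcome was fixed, since leaving out libraries cannot lower the count and the exceptions, named below, lay against Sham and WT. The choice of the genes used the TNFR1/2 KO and RIPK1 D138N libraries, so their values in these groups are a description, with no test. All 8 were above every RIPK1 D138N library, as chosen, where the share of all genes was 11.9%. Above every Sham library were 7, against 13.4% of all genes. Above every WT library were 7, against 35.6%. The exceptions were Klhdc7a, which overlapped Sham, and Iffo2, which was below every WT library as 22.0% of all genes were.

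**Figure D1:**
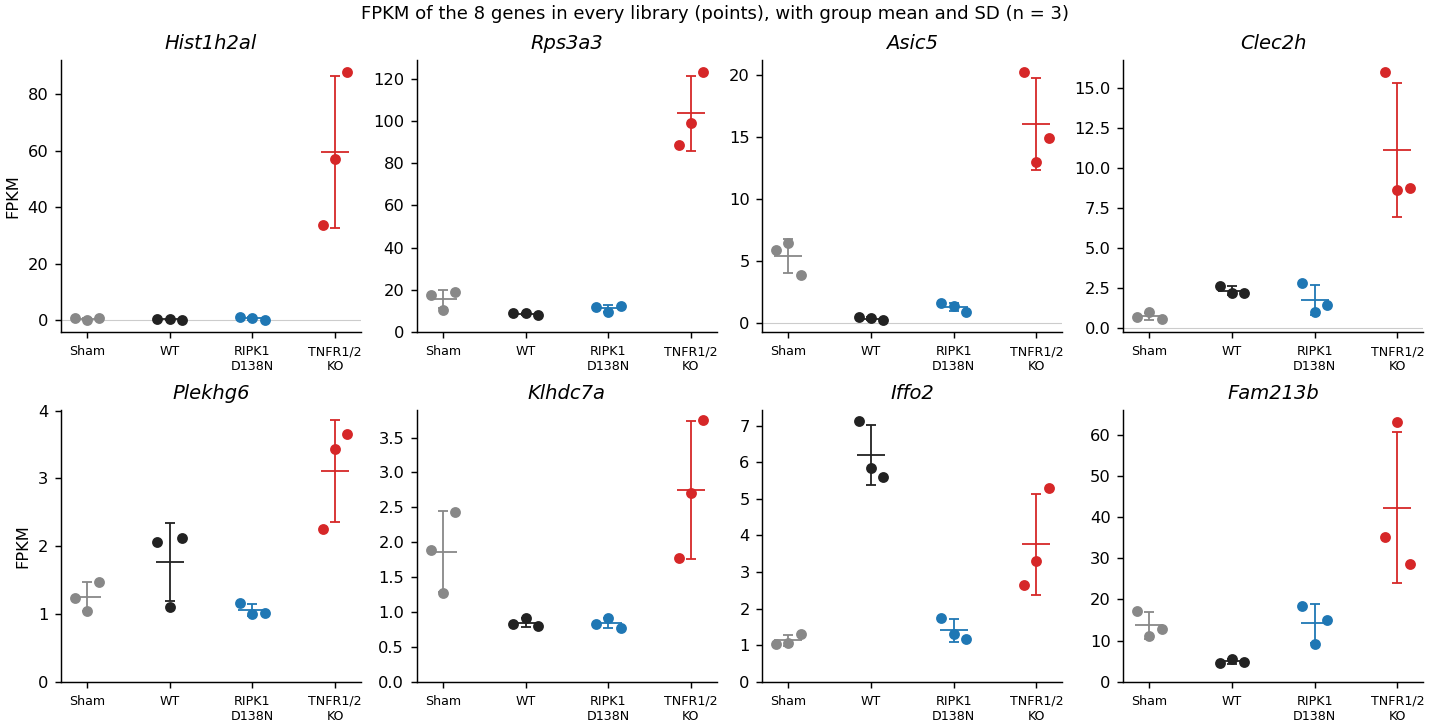
FPKM of the 8 genes in each library (points), with the mean and SD of each group (bars, n = 3) and a linear axis from 0 in every panel. The TNFR1/2 KO points lie above all others for 6 genes, overlap Sham for Klhdc7a and lie below WT for Iffo2.

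Hist1h2al stood at 33.7, 57.2 and 87.7 FPKM in TNFR1/2 KO. It was listed at 0.61, 0 and 0.681 in Sham, at 0.228, 0.392 and 0 in WT, and at 1.02, 0.639 and 0 in RIPK1 D138N. The lowest TNFR1/2 KO library was thus 33.2 times the highest of the other 9. Those 9 values rest on an estimated 8.2 fragments or fewer each, from the steps between low FPKM values. Hist1h2al entered the tested set through the TNFR1/2 KO group, since only 1 other library reached 1 FPKM, and it had to differ to do so.

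Rps3a3 stood at 88.5, 99.1 and 123 FPKM in TNFR1/2 KO, against 17.7, 10.8 and 18.9 in Sham. The WT libraries held 8.96, 9.25 and 8.38 and the RIPK1 D138N libraries 12.2, 9.48 and 12.3. The TNFR1/2 KO group was apart from the rest, with its lowest library at 4.68 times the highest other. Sham and RIPK1 D138N overlapped, and all 3 WT libraries were lower still.

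The summed level of Rps3a3 and its relatives was not highest in TNFR1/2 KO. Rps3a1, which encodes the ribosomal protein itself, stood at 196, 232 and 62.9 FPKM in TNFR1/2 KO, below the 338 to 359 FPKM of RIPK1 D138N, the 267 to 279 of WT and the 360 to 474 of Sham. It was lower in TNFR1/2 KO than in Sham by limma (log2 difference -1.53, adjusted p = 0.0088), and its differences from WT (-0.93, adjusted p = 0.0501) and of RIPK1 D138N from TNFR1/2 KO (1.30, adjusted p = 0.124) did not pass. Summed over the 7 near-identical genes as FPKM times transcript length in kilobases, the set stood at 273 ± 75.9 in TNFR1/2 KO, 285 ± 7.23 in WT, 372 ± 14.5 in RIPK1 D138N and 445 ± 62.5 in Sham (mean ± SD, n = 3). Rps3a3 made up 24.4, 23.1 and 51.4% of that sum in the TNFR1/2 KO libraries and 2.12 to 3.36% in the others. The sum in TNFR1/2 KO overlapped that in WT while its division among the copies differed. Rps3a2, another pseudogene of the set on chromosome 14, was also highest in TNFR1/2 KO, at 21.9, 31.4 and 31.2 FPKM against 15.5 or less elsewhere. Its difference of RIPK1 D138N from TNFR1/2 KO was -1.42 (limma adjusted p = 0.0223). How fragments were divided among the copies was not tested.

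Hist1h2al took a larger share of its own set. It made up 67.2, 68.5 and 76.7% of the summed FPKM times length of the 7 genes of that set in TNFR1/2 KO, and at most 5.46% in the other libraries. In the set, Gm20632 and Gm20633 are annotated as antisense and Gm20634 as a processed transcript. They overlap Hist2h2aa1 or Hist2h2aa2 and match Hist1h2al over its 339 bases, but their whole length enters the sum. Here the sum was also larger, at 28.0 ± 10.9 in TNFR1/2 KO against 9.57 ± 2.25 in Sham, 6.45 ± 0.786 in RIPK1 D138N and 3.67 ± 1.93 in WT (mean ± SD, n = 3). Hist2h2aa1 stood at 3.17, 5.14 and 6.16 FPKM in TNFR1/2 KO and 5.46, 3.68 and 5.89 in Sham, and the groups overlapped. Of the 19 other genes named as replication-type H2A, 3 passed the filter on low values: Hist2h2aa1, Hist2h2aa2 and Hist3h2a. None of these was above all other libraries in TNFR1/2 KO.

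**Figure D2:**
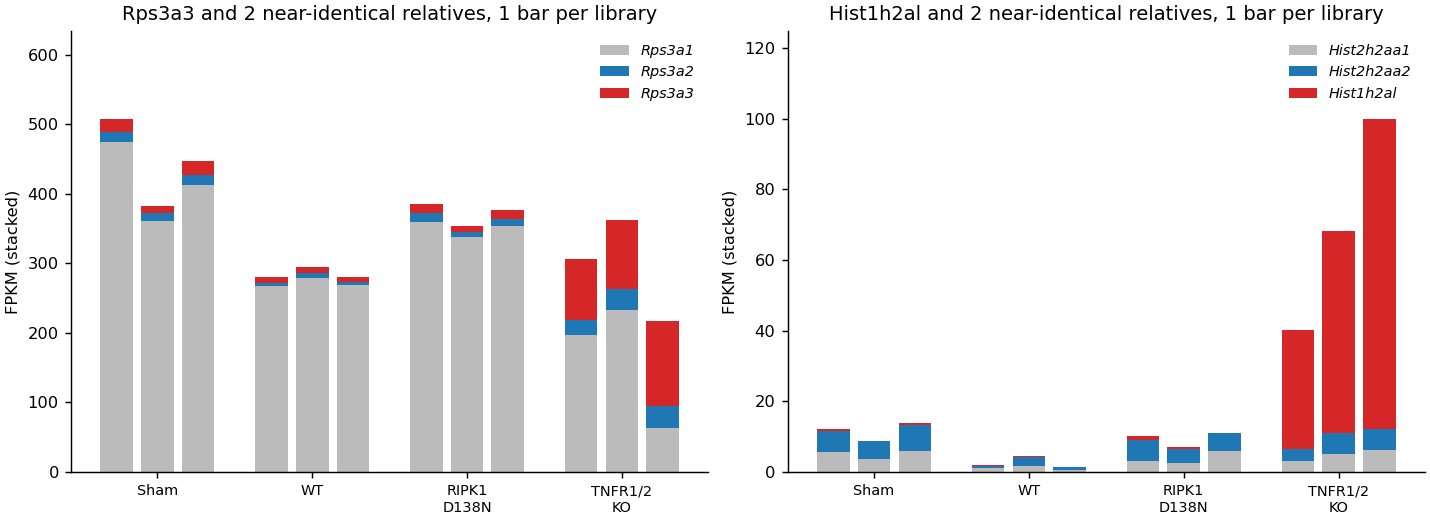
Stacked FPKM of Rps3a3 with Rps3a1 and Rps3a2 (left) and of Hist1h2al with Hist2h2aa1 and Hist2h2aa2 (right), 1 bar per library, by group. The Rps3a3 segment is tallest in TNFR1/2 KO while Rps3a1 is lowest there, and Hist1h2al makes up most of each TNFR1/2 KO bar.

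Asic5 stood at 20.2, 13 and 14.9 FPKM in TNFR1/2 KO. The Sham libraries held 5.84, 6.46 and 3.87, those of RIPK1 D138N 1.57, 1.32 and 0.879, and those of WT 0.435, 0.342 and 0.21. No 2 groups overlapped, in the order TNFR1/2 KO, Sham, RIPK1 D138N, WT, and the lowest TNFR1/2 KO library was 2.02 times the highest Sham library. Asic5 is known from bile duct cells, whose 8 markers summed to 35.4 to 60.0 FPKM in TNFR1/2 KO, 51.5 to 66.7 in RIPK1 D138N, 66.3 to 201 in WT and 23.7 to 29.1 in Sham. Their part in the Asic5 values was not tested. No marker of that list was above all other libraries in TNFR1/2 KO. None of the 4 other acid-sensing channel genes, Asic1 to Asic4, passed the filter, and their group means were 0.381 FPKM or less.

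Clec2h stood at 16, 8.63 and 8.76 FPKM in TNFR1/2 KO. It was at 2.64, 2.19 and 2.17 in WT, at 2.78, 1.0 and 1.45 in RIPK1 D138N and at 0.667, 0.978 and 0.521 in Sham. TNFR1/2 KO was apart from all others, at 3.11 times or more, and WT and RIPK1 D138N overlapped. Its relative Clec2d, which encodes another lectin-like ligand, went otherwise: its mean was 73.2 ± 26.7 FPKM in Sham, 9.72 ± 3.94 in WT, 96.9 ± 21.3 in RIPK1 D138N and 47.8 ± 14.8 in TNFR1/2 KO (SD, n = 3). The other 10 genes listed with it, of the Clec2 and Klrb1 families, did not pass the filter. The 7 natural killer and T cell markers summed to 1.16 to 1.88 FPKM in Sham, 0.425 to 0.431 in WT, 3.11 to 6.24 in RIPK1 D138N and 1.05 to 3.7 in TNFR1/2 KO. Clec2h is also known from intestinal epithelium, whose 8 markers summed to 70.9 to 131 FPKM in Sham, 12.9 to 19.5 in WT, 62.7 to 105 in RIPK1 D138N and 52.3 to 97.9 in TNFR1/2 KO. Most of that sum was Fabp2, a fatty acid binding protein gene, with a mean of 70.2 FPKM in TNFR1/2 KO, while Cdx1, Cdx2 and Sis were at 0 in all 12 libraries. The part of either cell type in the Clec2h values was not tested. In whole tissue, more cells of a type and more RNA per cell cannot be told apart.

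Fam213b stood at 35.2, 63.1 and 28.6 FPKM in TNFR1/2 KO, 18.5, 9.2 and 15 in RIPK1 D138N, 17.3, 11.1 and 12.8 in Sham, and 4.57, 5.53 and 4.79 in WT. Sham and RIPK1 D138N overlapped, WT was below both, and TNFR1/2 KO was above them by a factor of at least 1.54. Its relatives Fam213a and Aaed1, which encode proteins of the same thioredoxin-like family, had no such excess: Fam213a had means of 36.9 ± 7.01 in TNFR1/2 KO and 38.4 ± 6.84 in RIPK1 D138N (SD, n = 3), and Aaed1 16.6 ± 0.488 and 18.1 ± 1.84.

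Plekhg6 was low in all groups. Its TNFR1/2 KO libraries held 2.25, 3.43 and 3.66 FPKM, those of WT 2.07, 1.1 and 2.12, those of Sham 1.24, 1.05 and 1.48, and those of RIPK1 D138N 1.16, 1.0 and 1.01. The lowest TNFR1/2 KO library was 1.06 times the highest WT library, and after median-of-ratios scaling, an alternative chosen after seeing the data, the groups overlapped (1.72 in both on the log2 scale). Of its 5 relatives 3 passed the filter, Plekhg2, Plekhg3 and Plekhg5, and their highest mean was in WT, at 1.73, 7.80 and 1.53 FPKM.

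Klhdc7a was the member whose TNFR1/2 KO level was nearest to Sham. It stood at 1.78, 2.71 and 3.75 FPKM in TNFR1/2 KO and at 1.89, 1.28 and 2.43 in Sham, and 2 of the 3 TNFR1/2 KO libraries were above all Sham libraries. The WT libraries held 0.829, 0.919 and 0.805 and those of RIPK1 D138N 0.828, 0.918 and 0.774, which overlapped each other and lay below both other groups. Without TNFR1/2 KO replicate 1 it too was above every other library, and the count of such genes became 7. Of the 9 other Klhdc genes 5 passed the filter, and none was above all other libraries in TNFR1/2 KO.

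Iffo2 was highest in WT, at 7.13, 5.85 and 5.6 FPKM, and followed the label only against RIPK1 D138N and Sham. TNFR1/2 KO held 2.66, 3.3 and 5.31, RIPK1 D138N 1.76, 1.31 and 1.16, and Sham 1.05, 1.06 and 1.31. The TNFR1/2 KO libraries thus lay between WT and the 2 lower groups, with no overlap with either side. Iffo1, its relative, had group means of 0.673 to 1.0 FPKM.

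The mean difference of WT from Sham uses no library of the mutants, and it was tested. The spread behind its SE and p-value, and the filter on low values, came from all 12 libraries. The test is thus not fully separate from the choice of the genes. Asic5 was lower in WT (log2 difference -2.25, SE 0.209, limma adjusted p = 2.31e-06), as were Fam213b (-1.29, SE 0.292, adjusted p = 0.00219), Rps3a3 (-0.73, adjusted p = 0.00871) and Klhdc7a (-0.61, adjusted p = 0.0197). Iffo2 was higher in WT (1.75, SE 0.199, limma adjusted p = 1.13e-05), as was Clec2h (0.96, adjusted p = 0.00634). Plekhg6 (0.27, adjusted p = 0.236) did not pass. Hist1h2al, at 0.681 FPKM or less in both groups, was too low for a difference to be detectable, and its result (-0.22, adjusted p = 0.599) says nothing of its direction. The hepatocyte marker sum was also lower in WT than in Sham, and its part in these differences was not tested. Values are on the log2(FPKM + 1) scale, which understates changes of low genes. Of the other 7 genes 6 were thus called, where 58.2% of all genes were: 2 higher (16.4% of all genes) and 4 lower (41.9%). The median over the 8, Hist1h2al included, was -0.42, beside -0.36 over all genes tested. With median-of-ratios scaling, which moves the median of all genes to -0.026, Rps3a3 (-0.32, limma adjusted p = 0.204) and Klhdc7a (-0.35, adjusted p = 0.131) no longer passed and Plekhg6 was higher in WT (0.53, adjusted p = 0.0204). Rps3a3 also did not pass after quantile normalization (-0.23, adjusted p = 0.364), nor did Klhdc7a without the filter on low values or without any 1 of 3 libraries (2 of WT and 1 of Sham, adjusted p = 0.0514 to 0.0823), and Plekhg6 passed without the WT library at 1.1 FPKM (adjusted p = 0.0459).

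Set against Sham, the groups fell into different patterns. For Asic5 the difference was -2.25 in WT, -1.49 in RIPK1 D138N and 1.42 in TNFR1/2 KO (SE 0.209 each). For Fam213b it was -1.29, 0.02 and 1.5 in the same order (SE 0.292). For Iffo2 it was 1.75, 0.17 and 1.12 (SE 0.199), so TNFR1/2 KO lay on the same side as WT there. Clec2h had 0.96, 0.63 and 2.77 (SE 0.257). These comparisons share the Sham libraries, and no p is given for the mutants.

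**Figure D3:**
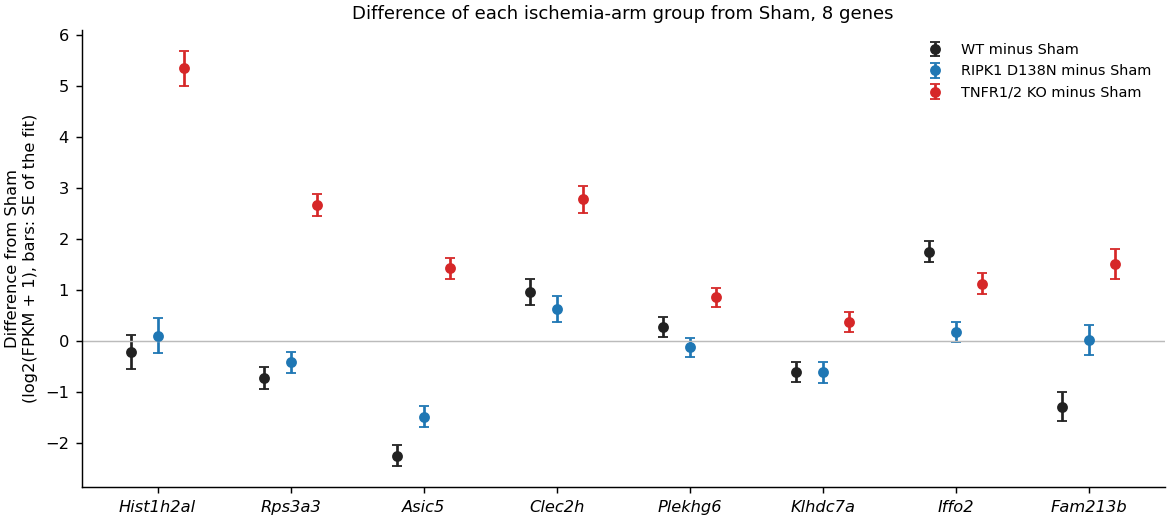
Difference of WT, RIPK1 D138N and TNFR1/2 KO from Sham for the 8 genes, on the log2(FPKM + 1) scale (points, with the SE of the fit as bars). TNFR1/2 KO is above 0 for all 8 genes, from 0.37 for Klhdc7a to 5.34 for Hist1h2al, while WT is below 0 for 5 of them.

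On the chromosomes of the receptor genes lie 5 of the 8, 2 on chromosome 6 with Tnfrsf1a and 3 on chromosome 4 with Tnfrsf1b. These chromosomes hold 11.8% of all genes tested and 10 of the 68 genes (14.7%) called higher in TNFR1/2 KO than in RIPK1 D138N. The 68 include all 8 members, which were picked for that difference, so their calls are no test of them. Of the 10, 5 are members. How the 8 were picked among such genes is not stated, and position may have played a part. The 5 of 8 on these chromosomes are therefore a description, with no test of linkage to the receptors. The called share of all genes in that direction was 0.58%. The 109 calls in both directions rested on single libraries: there were 588 without RIPK1 D138N replicate 1, 30 and 27 without its replicates 2 and 3, and 48 and 31 without TNFR1/2 KO replicates 2 and 3. The 588 came from the fit that kept only the RIPK1 D138N libraries with Xist, replicates 2 and 3. Positions are from GENCODE M21 on GRCm38, the mm10 build.

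Plekhg6 (ENSMUSG00000038167, chromosome 6, 125362660 to 125380793, minus strand) is the direct neighbour of Tnfrsf1a (125349362 to 125362484, plus strand). Their 3′ ends face each other, and Plekhg6 ends 176 bases beyond Tnfrsf1a. Whether counting used the strand is not stated, so fragments that read past the end of either gene could be counted for the other. The order of the groups was another for Tnfrsf1a, which stood at 18.5 ± 3.28 FPKM in TNFR1/2 KO, 19.8 ± 1.09 in RIPK1 D138N, 35.1 ± 2.90 in WT and 69.5 ± 16.5 in Sham (SD, n = 3). On the other side of Tnfrsf1a, Scnn1a, a sodium channel subunit gene, had 2.62 ± 0.632 in TNFR1/2 KO and 2.2 ± 0.712 in RIPK1 D138N (limma log2 difference of RIPK1 D138N from TNFR1/2 KO -0.19, adjusted p = 0.838). Ltbr, the lymphotoxin receptor gene, had 31.0 ± 3.21 and 22.2 ± 1.10 (-0.46, limma adjusted p = 0.18).

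Clec2h (ENSMUSG00000030364, chromosome 6, 128662385 to 128677374) lies 3.3 Mb from Tnfrsf1a. On chromosome 4, Klhdc7a (ENSMUSG00000078234, 139960220 to 139968026) lies 5.25 Mb, Iffo2 (ENSMUSG00000041025, 139530548 to 139620382) 5.59 Mb and Fam213b (ENSMUSG00000029059, 154895504 to 154899135) 9.65 Mb from Tnfrsf1b. The remaining 3 are not linked to either receptor by chromosome. Asic5 (ENSMUSG00000028008) is on chromosome 3, 81982290 to 82021233. Hist1h2al (ENSMUSG00000091383) and Rps3a3 (ENSMUSG00000059751) are both on chromosome 13, at 51202727 to 51203065 and 108670603 to 108671397. That chromosome holds Ripk1, the locus of the other mutant, 17.2 and 74.6 Mb away. Rps3a3 lies within Pde4d, a phosphodiesterase gene, which had group means of 0.298 to 1.51 FPKM.

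Other genes around the receptors were counted in the same way. Within 10 Mb of either receptor, the 5 members there, picked for a difference between the mutants, were left out. All 5 were called between the mutants, and Clec2h, Plekhg6 and Fam213b were above all other libraries in TNFR1/2 KO. Leaving them out lowers both shares around the receptors, while the shares of all genes include all 8. The shares compared here are thus not alike, and they are no test of an effect of position. With the 5 left out, 287 tested genes remained. One of them (0.348%) was called between the mutants, where 0.929% of all genes tested were: Gm7298, at 5.48 ± 0.749 FPKM in TNFR1/2 KO and 2.43 ± 0.546 in RIPK1 D138N (SD, n = 3; limma adjusted p = 0.046). Gm7298 in TNFR1/2 KO was close to its level in Sham (5.54 ± 1.45, limma adjusted p = 0.995). Without RIPK1 D138N replicates 2 and 3 Gm7298 was not called, but that fit has 1 RIPK1 D138N library and assumes that it varies like the other groups. Of the 287, 4 (1.39%) were above all other libraries in TNFR1/2 KO, as were 1.42% of all genes: Pparg, Lpcat3 and C1s1 on chromosome 6 and Slc2a5 on chromosome 4. By receptor, the share was 2.26% around Tnfrsf1a and 0.649% around Tnfrsf1b. Within 2 Mb it was 2 of 43 genes (4.65%) around Tnfrsf1a, Lpcat3 and C1s1, and 0 of 11 around Tnfrsf1b. For TNFR1/2 KO against WT, 146 (50.9%) were called beside 47.1% of all genes, and against Sham 75 (26.1%) beside 25.6%. No source used here names the strain from which the DNA beside the targeted loci came. An effect of such DNA and one of the missing receptors would fall in the same 3 libraries and cannot be told apart.

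**Figure D4:**
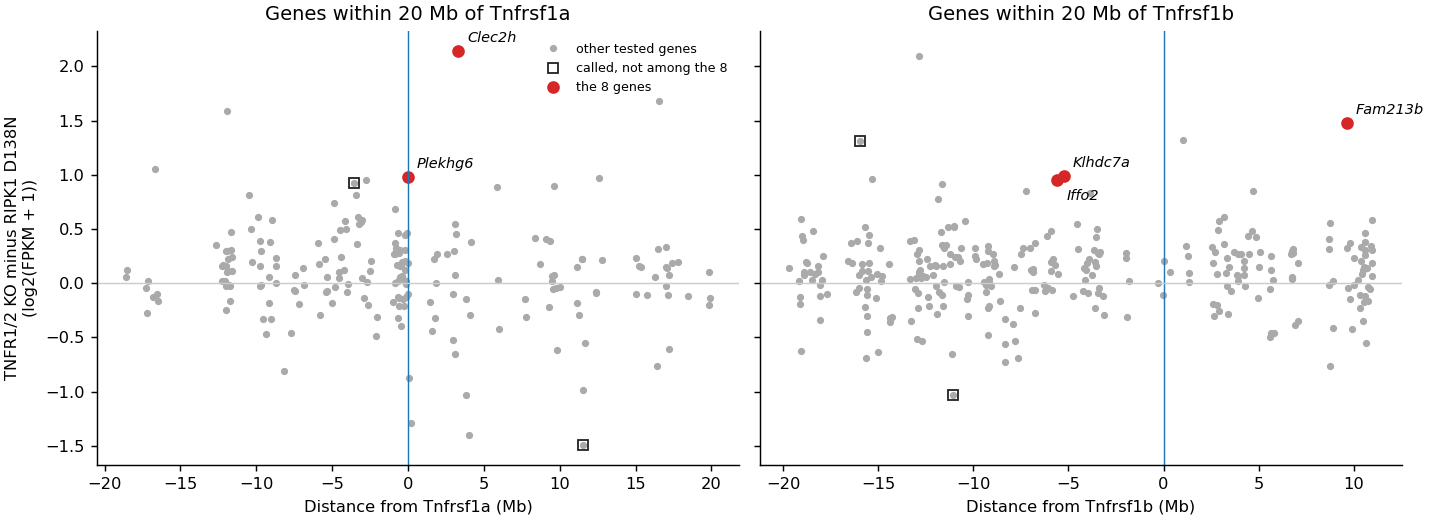
Difference of TNFR1/2 KO from RIPK1 D138N (log2(FPKM + 1)) for each tested gene against its distance from Tnfrsf1a (left) or Tnfrsf1b (right), within 20 Mb. The 5 linked members (red) lie between 0.95 and 2.14, and 4 other genes were called between the mutants (squares), 2 above and 2 below 0.

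On chromosome 3, 19 of 583 tested genes (3.26%) were above all other libraries in TNFR1/2 KO, beside 148 of 11145 (1.33%) on the rest. That was the highest share among chromosomes with at least 100 tested genes. The difference was noticed after the values were seen and was not tested. The 19 include Gm37784 and B3galnt1, which reached 1 FPKM in TNFR1/2 KO alone and entered the tested set only through that group. Chromosome 3 carries Asic5 and neither receptor gene nor Ripk1. It also holds Rps3a1, Hist2h2aa1 and Hist2h2aa2, the relatives of the pseudogenes Rps3a3 and Hist1h2al.

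**Figure D5:**
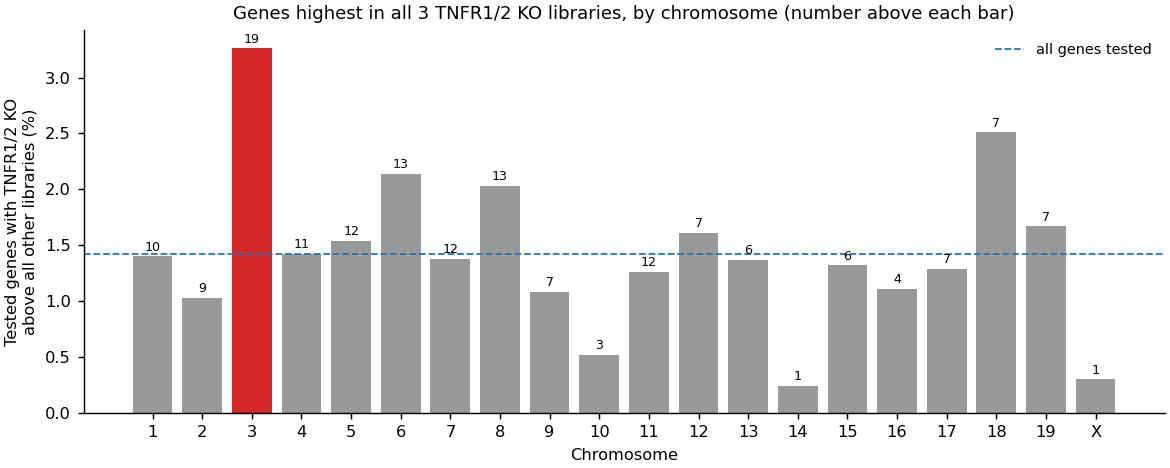
Share of the tested genes of each chromosome that were above all other libraries in TNFR1/2 KO (bars, in percent, with the number of such genes above), beside the share of all genes tested (dashed line, 1.42%). Chromosome 3 is highest with 19 genes (3.26%), and chromosome 4 with 11 lies at the line.

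The pair Hist1h2al and Rps3a3 had the most similar pattern among the 8, with a Pearson r of 0.976 between their log2(FPKM + 1) values over the 12 libraries. Each of these correlations is a description over libraries that share the 4 groups. Outside the 8, Cd1d2, annotated as a polymorphic pseudogene of the CD1 antigen-presenting family, was nearest to both (0.952 and 0.961). Asic5 was most like Rnf43, a ubiquitin ligase gene of Wnt signalling (0.941), and Ifi30, a lysosomal thiol reductase gene (0.940). Fam213b was most like Rps3a2 (0.945) and Ccdc30 (0.940), and Clec2h like Plekhh3 (0.903) and the collagen gene Col5a3 (0.897). Plekhg6 was most like Sh3d19 (0.939) and Sh3bgrl2 (0.891), and Klhdc7a like Map2k3, a kinase gene of the p38 pathway (0.916), and Slc22a15 (0.913). Iffo2 was nearest to Rsad2, an interferon-induced antiviral gene (0.971), and Ppp1r13b (0.969). Rsad2 had 37.8 ± 6.31 FPKM in WT, 13.6 ± 1.97 in TNFR1/2 KO, 2.45 ± 1.36 in RIPK1 D138N and 1.32 ± 0.414 in Sham (SD, n = 3), the same order of groups as Iffo2. Iffo2 was the least like the other members, with r from -0.26 with Fam213b to 0.597 with Plekhg6.

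Start-site sequence was at hand for 5 of the 8 genes in the RefSeq promoter table (GRCm38), which gives 250 bases before to 50 after a start. The windows of 3 genes are shown because their genes were above all other libraries in TNFR1/2 KO without a near-identical copy. Capitals mark a match on either strand to the TATA box letters TATAAA, to the CCAAT box, spelled CCAAT, or to the GC box letters GGGCGG. Matches may overlap.
Asic5, chr3:81996672-81996971, plus strand: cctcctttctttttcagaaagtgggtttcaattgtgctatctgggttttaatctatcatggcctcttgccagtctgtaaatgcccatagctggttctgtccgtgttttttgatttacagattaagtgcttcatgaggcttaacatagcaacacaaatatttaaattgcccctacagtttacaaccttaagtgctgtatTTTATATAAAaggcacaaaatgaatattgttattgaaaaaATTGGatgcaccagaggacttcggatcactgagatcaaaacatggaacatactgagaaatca
Clec2h, chr6:128662135-128662434, plus strand: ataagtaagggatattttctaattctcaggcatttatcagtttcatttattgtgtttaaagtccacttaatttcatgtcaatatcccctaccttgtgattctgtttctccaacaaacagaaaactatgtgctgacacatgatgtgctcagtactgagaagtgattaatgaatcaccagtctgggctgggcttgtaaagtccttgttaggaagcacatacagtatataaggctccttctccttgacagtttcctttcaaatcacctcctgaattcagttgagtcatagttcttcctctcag
Fam213b, chr4:154898994-154899293, minus strand: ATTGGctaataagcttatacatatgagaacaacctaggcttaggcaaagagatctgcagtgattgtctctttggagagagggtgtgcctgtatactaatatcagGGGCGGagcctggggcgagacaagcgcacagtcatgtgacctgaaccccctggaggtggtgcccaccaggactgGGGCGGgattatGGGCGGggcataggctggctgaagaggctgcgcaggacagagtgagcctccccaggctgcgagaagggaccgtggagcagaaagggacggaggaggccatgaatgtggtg
The Asic5 window has 2 matches to TATAAA that overlap on opposite strands and 1 to CCAAT, and begins inside the longer GENCODE gene. The Clec2h window has no exact match to any of the 3, and the Fam213b window has 1 match to CCAAT and 3 to GGGCGG. Other spellings of the TATA box were not searched, so a window without a mark may still hold one. Among 32851 promoters of the same length, 13.6% hold TATAAA, 37.4% CCAAT and 35.7% GGGCGG. The NF-kB motif, searched by name because TNF receptors signal through that factor, matched in none of the 6 windows of the 5 genes and in 8.5% of all promoters. No one of these motifs was found in all 3 windows.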

How the data were processed

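Total RNA of mouse liver was made into libraries with a NEB RNA Ultra kit, per the labels' protocols. The authors deposited FPKM values in 1 table. STAR 2.5.4a, Cufflinks 2.2.1, Cuffdiff and mm10 are named in the submitters' processing notes, and use of the strand in counting is not stated. WT and Sham columns were matched to their group only, the others to replicates. Low values moved in steps of whole fragments, 11.4 to 61.6 per FPKM and kilobase, so low values are coarse. This depth differed by group, at 11.4 to 25.8 in Sham and 34.6 to 61.6 in WT. Total FPKM was 649373 to 750501 in Sham and 288934 to 303514 in WT, with the mutant libraries between. Whether replicates are separate animals is not given, so p-values cover the spread between these samples alone, which may be technical.

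The tested set was the 11728 genes that reached 1 FPKM in 3 or more libraries. Values of log2(FPKM + 1) were fitted as 4 group means with limma (version 3.58.1, R version 4.3.3) and a trend. P-values were adjusted by Benjamini-Hochberg over all of them and called under 0.05. The procedure was tested on simulated data. Identifiers matched GENCODE M21 for 53702 genes (99.8%). Relatives were found with blastn 2.17.0. The members and lists were chosen with earlier results of these data known. Named besides the members were the targeted genes, the 2 named genes most correlated with each, called neighbours within 10 Mb and tested relatives. Other genes were named after their values were seen.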

Additional observations from a re-analysis of the deposited data

How the results depend on the processing

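The FPKM scale, the filter on low values and single libraries were varied, and no value of the 8 genes that had been called reversed. Between RIPK1 D138N and TNFR1/2 KO, 109 genes were called. Without the filter there were 60, and without RIPK1 D138N replicates 2 and 3 there were 39, from a fit in which the 1 library left is assumed to vary like the other groups. Leaving out 1 library gave 27 to 588: 588 without RIPK1 D138N replicate 1, 30 and 27 without its replicates 2 and 3, and 48 and 31 without TNFR1/2 KO replicates 2 and 3. Without replicate 1, the RIPK1 D138N libraries left were those with Xist. Against Sham, leaving out 1 library gave 1856 to 2609 calls for TNFR1/2 KO (3002 in all, 1856 without its replicate 3) and 2249 to 3509 for RIPK1 D138N (3539 in all, 2249 without its replicate 3). Against WT it gave 4546 to 5443 and 4994 to 5999, and for WT against Sham 6016 to 6479. Besides the members, the genes called near the receptors numbered 1 within 10 Mb and 4 within 20 Mb (Mgp, Gm7298, Sh3bgrl3 and C77080). Without RIPK1 D138N replicates 2 and 3, the log2 difference of RIPK1 D138N from TNFR1/2 KO was -1.76 for Mug2 and 2.0 for Cd9. These values rest on the same single library, so that no spread within that group stands behind them. Genes of the 8 above all other libraries numbered 6 to 7 with 1 library left out, 5 after median-of-ratios scaling and 6 without RIPK1 D138N replicates 2 and 3. Leaving out libraries cannot lower this count, so only the scaling could. The numbers do not pair the samples: same-numbered libraries of the mutants had correlations of -0.0975, -0.202 and 0.0574 in their deviations from the group means, and with a replicate block 113 genes were called. The cause of these changes was not tested. Depth limits Hist1h2al outside TNFR1/2 KO and the other genes near 1 FPKM.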

Other observations

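In 9 of the 11728 genes tested the lowest TNFR1/2 KO library was at least 2 times the highest of the other libraries. Among them were Hist1h2al, Rps3a3, Clec2h and Asic5. Of the other 5, named after their values were seen, Cd1d2, Gm37784, Hsd3b2 and B3galnt1 lie on chromosome 3 and Col5a3 on chromosome 9. Gm37784 (69963282 to 69963470), a processed pseudogene, was listed at 0 in all 9 other libraries and at 3.58, 8.0 and 4.57 FPKM in TNFR1/2 KO. Cd1d2 (86986551 to 86989780) stood at 6.02, 8.53 and 11.1 FPKM against 1.53 or less. Hsd3b2, a steroid dehydrogenase gene, stood at 25.8, 17.7 and 44.3 FPKM in TNFR1/2 KO, at 5.01 to 6.88 in RIPK1 D138N and at 1.42 or less in WT and Sham. B3galnt1, a glycosyltransferase gene, stood at 1.36 ± 0.379 FPKM in TNFR1/2 KO against group means of 0.369 or less (SD, n = 3). Like Gm37784, it reached 1 FPKM in TNFR1/2 KO alone. Both genes thus entered the tested set only through that group and had to be high there to be counted.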
